A study of Mus musculus with 6 samples.

Results

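The genes that encode the proteasome were examined in vastus lateralis, a part of the quadriceps, of mice that over-express FRG1 and of wild type mice. Members were taken by the platform's symbol: Psma1 to Psma7, Psmb1 to Psmb7, and every symbol that starts with Psmc, Psmd or Psme and a digit. The array carried 40 such genes (67 probes) among 17711 genes with a symbol. Probes with a detection p-value under 0.05 (a comparison with the negative controls of the array) on 3 or more of 6 arrays were retained. By that filter 39 of the 40 genes were retained through 56 probes, against 10287 genes in all. The one left out was Psma6, whose single probe was detected on 0 arrays. Each of the 39 genes was represented by its probe with the highest mean, and each of these probes was detected on all 6 arrays, so no gene entered through 1 group alone. Of the members, 2 match by name but encode no subunit, activator or assembly chaperone. Psmc3ip encodes a protein of meiotic recombination, and Psme3ip1 encodes a protein that binds the activator subunit Psme3. The other 37 retained genes encode subunits, activators or assembly chaperones.

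The proteasome degrades proteins that carry ubiquitin chains. Its barrel-shaped core particle has outer rings of alpha subunits, which form a gate, and inner rings of beta subunits, of which 3 (Psmb5, Psmb6 and Psmb7) hold the proteolytic sites. A regulatory particle caps the core: its base holds a ring of ATPases that unfold substrates, and its lid removes ubiquitin. In skeletal muscle this system breaks down myofibrillar proteins and is known for its part in atrophy.

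Both groups were C57Bl/6J females aged 4 weeks, with 3 samples each: wild type Sample906, Sample872 and Sample923, and FRG1 Sample873, Sample874 and Sample871. FRG1 is FSHD region gene 1, named for its position beside the repeats that are tied to facioscapulohumeral muscular dystrophy (FSHD). The sources used here do not give the promoter of the transgene, its species, the number of lines or any pooling of animals. The labels do not say how the animals were bred or handled, so the p-values reflect only how these samples varied, which may be technical. Array totals lay between 10537335 and 13062182 intensity units, and between 17957 and 20000 probes were detected per array. The Frg1 probe was detected on 0 of 6 arrays, and the over-expression could not be checked with it. Of 10 skeletal muscle fibre markers 9 were retained (Mylpf was not measured here). At an adjusted p under 0.05 in limma 0 were higher and 2 lower (Actn3 and Myh4), against 7.53% and 7.23% of all genes. Their summed linear level was 173367 to 185014 in wild type and 163672 to 178075 in FRG1 muscle. Very bright probes, such as Acta1 (log2 means 14.73 and 14.71), make up much of this sum. Quantile normalization gives every array the same set of values, which limits differences in such a sum. This is bulk tissue, in which fewer cells of a type and less RNA per cell cannot be told apart.

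Values below are log2 of background-corrected, quantile-normalized intensity, and log2 fold changes are FRG1 minus wild type. Most member genes (33 of 39, or 31 of 37 without the 2 name matches) had a small positive log2 fold change. Of the 39, 5 passed the test, among them the name match Psmc3ip. Psmd8, a lid subunit, rose 1.57-fold, Psmd10, a chaperone of the base, 1.38-fold, and Psma4, an alpha subunit of the core, 1.32-fold, while Psmd9, another chaperone of the base, fell (1.64-fold, wild type over FRG1). With Psmc3ip (1.42-fold), 4 of 39 genes were higher and 1 lower at an adjusted p under 0.05 in limma; across all genes 7.53% were higher and 7.23% were lower, and across all probes 7.1% and 6.71%. The members' share of higher calls was near this background and that of lower calls under it, and 34 members did not pass. The positive share was 84.6%, against 45.9% of all genes, and the median log2 fold change was 0.17 for the members and -0.03 for all genes.

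**Figure D1:**
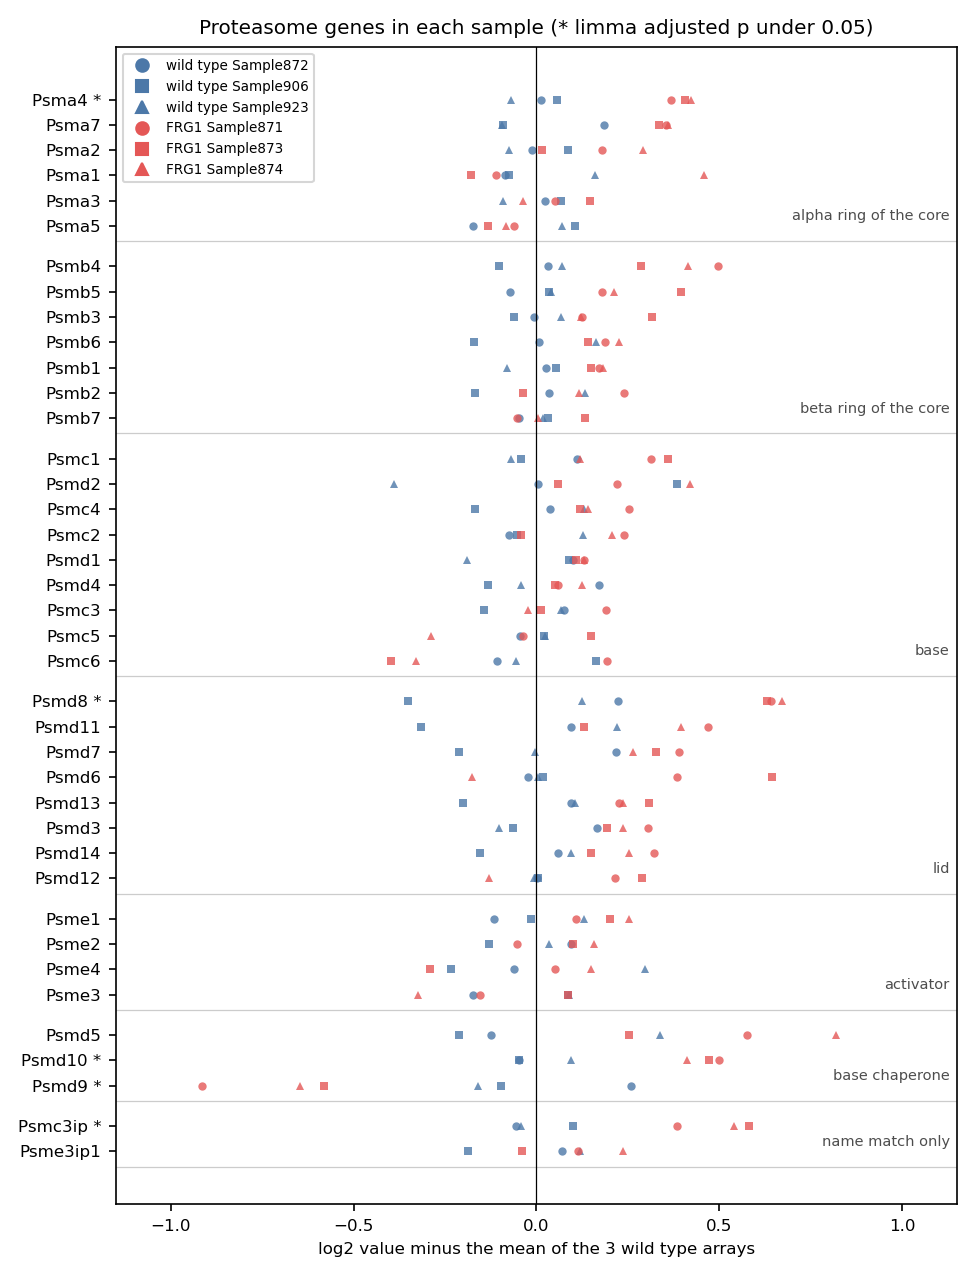
Each row is a member gene, name matches included, and each point 1 array, plotted as its log2 value minus the mean of the 3 wild type arrays. Blue is wild type, red is FRG1, and an asterisk marks an adjusted p under 0.05 in limma. The red points lie mostly to the right of 0, by under 0.5 for most genes, and Psmd9 is the only gene with all 3 red points left of all blue ones.

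The same 6 values per gene were also read sample by sample, which restates the positive sign of most members and adds no separate support. For 34 of 39 genes (87.2%) the highest of the 6 values was in an FRG1 sample, against 43.1% of all genes, and for 30 (76.9%) the lowest was in a wild type sample, against 50.1%. Wild type Sample906 held the lowest value of 15 members (38.5%, against 22.7% of all genes). The groups did not overlap, FRG1 above wild type, in 15 members (38.5%, against 16.9% of all genes), and FRG1 lay below wild type in 1 member, against 19.8%. The shifts were mostly small: 22 of 39 members had a log2 fold change between -0.2 and 0.2 (49.8% of all genes). In 16 of 39 members it was over 0.2, against 22.5% of all genes. Standard errors ran from 0.11 to 0.19. These counts describe the list. No test was made over the list, since its members were chosen with results of these arrays known.

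**Figure D2:**
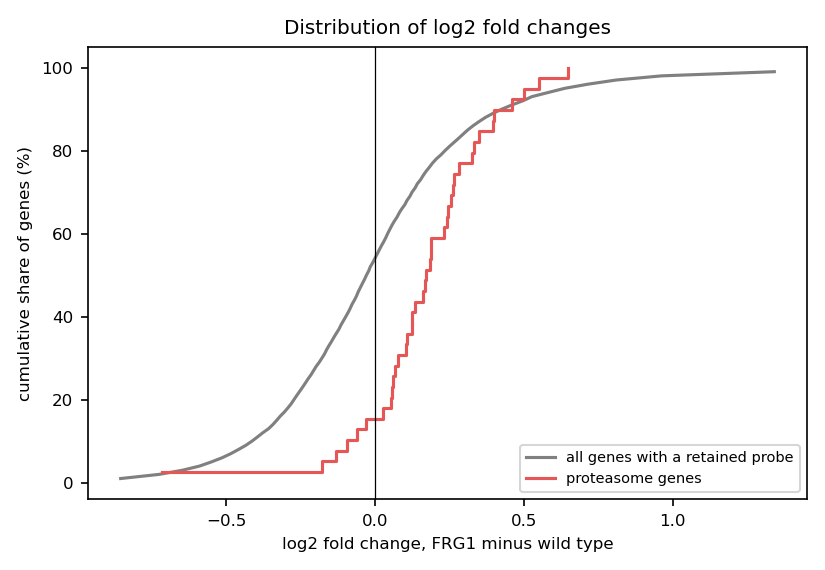
The horizontal axis is the log2 fold change (FRG1 minus wild type) and the vertical axis the cumulative share of genes in percent. The 39 member genes, name matches included, are in red and all 10287 genes in grey (percentiles 1 to 99). The red line is shifted to the right over its middle, with medians of 0.17 and -0.03, and meets the grey line near its upper end.

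By role, the median log2 fold change was 0.11 for the 6 alpha ring genes, 0.18 for the 7 beta ring genes, 0.12 for the 9 base genes, 0.27 for the 8 lid genes and 0.02 for the 4 activator genes. All 8 lid genes and all 7 beta ring genes were positive, as were 5 of 6 alpha ring, 7 of 9 base and 2 of 4 activator genes. The number called was 1 in the alpha ring, 1 in the lid and 0 in the beta ring, the base and the activators. Across all genes 7.53% were called higher and 7.23% lower, and with 4 to 9 genes per role these counts do not set the roles apart. The groups were apart in 5 lid, 4 beta ring, 2 alpha ring, 2 base and 0 activator genes, that is in 62.5%, 57.1%, 33.3%, 22.2% and 0% of them, against 16.9% of all genes; the base share was near that background. With 1 sample left out, the medians were 0.10 to 0.20 for the alpha ring, 0.16 to 0.22 for the beta ring, 0.056 to 0.16 for the base, 0.20 to 0.31 for the lid and -0.04 to 0.10 for the activators. The alpha ring median was 0.20 without FRG1 Sample873, above the 0.18 of the beta ring in that fit. The base median was 0.056 without wild type Sample923, and the activator median was -0.04 without wild type Sample906 and 0.10 without Sample923. The roles differ in number of genes and the differences between them were not tested.

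**Figure D3:**
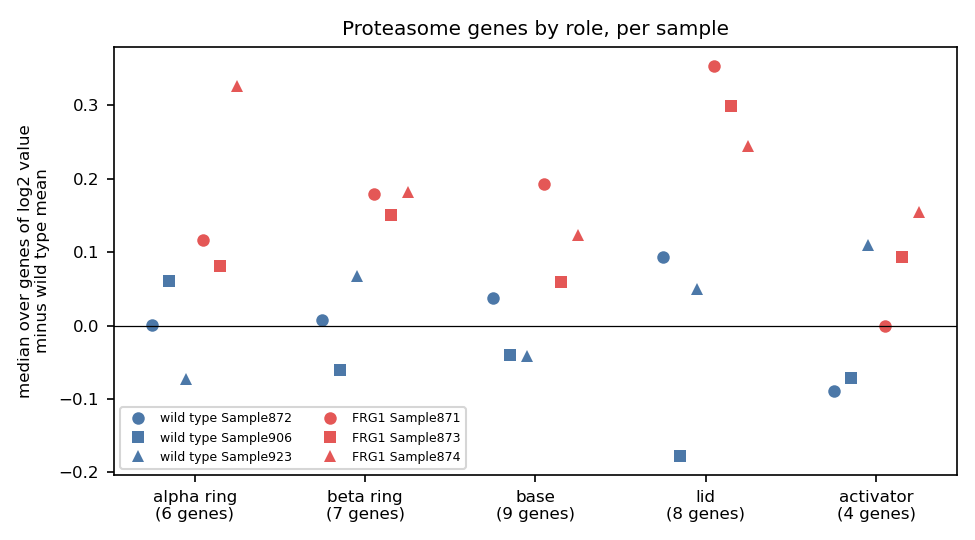
Each point is 1 array, plotted as the median, over the genes of a role, of log2 value minus the wild type mean, with blue for wild type and red for FRG1. Of the 5 roles drawn (base chaperones and name matches are not), the lid shows the widest gap, with FRG1 arrays at 0.25 to 0.35 and wild type arrays at -0.18 to 0.09, while the activator points of the 2 groups overlap.

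In the alpha ring, Psma4 was the gene that passed. Its log2 values were 11.69, 11.64 and 11.56 in wild type Sample906, Sample872 and Sample923, and 12.04, 12.05 and 12.00 in FRG1 Sample873, Sample874 and Sample871. The groups did not overlap, and the spread within each was small beside the gap between them. The log2 fold change was 0.40 ± 0.11 (SE; limma adjusted p = 0.0425). The call was lost with any 1 of the 6 samples left out (adjusted p = 0.0698 to 0.135) and under median scaling (adjusted p = 0.062). Psma7 had values of 10.21 to 10.49 in wild type and 10.64 to 10.66 in FRG1 muscle, which also did not overlap, and did not pass (0.35 ± 0.12; adjusted p = 0.0942). The other alpha genes, Psma1, Psma2, Psma3 and Psma5, had log2 fold changes between -0.09 and 0.16 with overlapping groups. Psma5, the negative one, had a dim probe (4.94 to 5.21 in wild type and 4.98 to 5.05 in FRG1 muscle). The offset understates fold changes at such a level.

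Among the beta ring genes, Psmb4, a subunit without a proteolytic site, came nearest to the threshold. It read 12.17, 12.30 and 12.34 in the wild type samples and 12.56, 12.69 and 12.77 in the FRG1 samples (0.40 ± 0.12; limma adjusted p = 0.0558). The groups were apart on every array, and the adjusted p lay just above the threshold. Psmb5, the chymotrypsin-like subunit, read 11.48, 11.38 and 11.49 in wild type Sample906, Sample872 and Sample923, and 11.85, 11.66 and 11.63 in FRG1 Sample873, Sample874 and Sample871. The FRG1 values were all above the wild type values, and the log2 fold change of 0.26 ± 0.12 did not pass (adjusted p = 0.184; 95% interval -0.0048 to 0.53). Psmb6, the caspase-like subunit, read 12.13, 12.31 and 12.46 in wild type and 12.44, 12.53 and 12.49 in FRG1 muscle. One wild type value lay within the FRG1 range, and the log2 fold change was 0.18 ± 0.13 (adjusted p = 0.380; interval -0.10 to 0.47). Psmb7, the trypsin-like subunit, read 12.71, 12.62 and 12.69 in wild type and 12.81, 12.68 and 12.62 in FRG1 muscle. Its groups overlapped throughout (0.03 ± 0.12; adjusted p = 0.903; interval -0.23 to 0.29), and its 3 retained probes gave log2 fold changes of 0.03 to 0.13. Psmb1, Psmb2 and Psmb3, structural subunits of the ring, lay between 0.11 and 0.19.

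No gene of the base passed. The 6 ATPase genes, Psmc1 to Psmc6, had log2 fold changes from -0.18 to 0.26, with adjusted p-values from 0.196 to 0.825. Psmc1 was the highest of them (0.26 ± 0.12) and its FRG1 values of 9.58 to 9.82 lay above the wild type values of 9.39 to 9.57. Psmc6 had the most negative value of any member except Psmd9. It read 6.56, 6.29 and 6.35 in the wild type samples and 6.00, 6.07 and 6.59 in the FRG1 samples, so that FRG1 Sample871 was the highest of all 6 and FRG1 Sample873 the lowest (-0.18 ± 0.17). The scaffold genes Psmd1 (0.12 ± 0.12) and Psmd2 (0.23 ± 0.19) and the ubiquitin receptor gene Psmd4 (0.08 ± 0.12) were positive and did not pass.

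In the lid, Psmd8 had the largest positive value of any member. Its values were 11.20, 11.78 and 11.68 in wild type Sample906, Sample872 and Sample923, and 12.19, 12.23 and 12.20 in FRG1 Sample873, Sample874 and Sample871. The FRG1 samples lay close together and above every wild type sample, and wild type Sample906 lay below the other two. The log2 fold change was 0.65 ± 0.16 (SE; limma adjusted p = 0.0236), and without wild type Sample906 it was 0.48 with an adjusted p of 0.0511. The call was also lost with any 1 FRG1 sample left out, with the authors' processed table and with no detection filter. Of the Psmd8 probes, 1 was retained. The 7 other lid genes ran from 0.12 to 0.33. They included Psmd14, the deubiquitinase of the lid (0.24 ± 0.12), its partner Psmd7 (0.33 ± 0.14), Psmd11 (0.33 ± 0.16) and Psmd13 (0.26 ± 0.13), and their adjusted p-values lay between 0.148 and 0.602. For Psmd7, Psmd14, Psmd13 and Psmd3 every FRG1 value was above every wild type value. The other retained Psmd7 probes differed, at 0.35 with no overlap and at 0.02 with overlapping groups.

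Among the chaperones that guide assembly of the base, 1 rose and 1 fell. Psmd10 (gankyrin) read 7.96, 7.96 and 8.10 in wild type Sample906, Sample872 and Sample923, and 8.48, 8.42 and 8.51 in FRG1 Sample873, Sample874 and Sample871. The groups were well apart. The log2 fold change was 0.46 ± 0.11 (limma adjusted p = 0.0261), and its other 2 retained probes gave 0.55 and 0.24 without passing. The call was lost with any 1 sample left out except wild type Sample923, and with probes averaged. Psmd9 read 7.10, 7.46 and 7.04 in wild type and 6.62, 6.55 and 6.29 in FRG1 muscle, in the same sample order. Every FRG1 value was below every wild type value, and the log2 fold change was -0.71 ± 0.15 (adjusted p = 0.0131). All 3 retained Psmd9 probes were negative, at -0.71, -0.32 and -0.11, and the other 2, detected on 5 and 4 arrays, did not pass. The Psmd9 call was lost without FRG1 Sample871 and under median scaling. Psmd5 read 5.80, 5.88 and 6.35 in wild type and 6.26, 6.83 and 6.58 in FRG1 muscle. Wild type Sample923 exceeded FRG1 Sample873, and the log2 fold change of 0.55 ± 0.19 did not pass (adjusted p = 0.0808).

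The 4 activator genes did not pass in either direction. Psme1 and Psme2 encode the interferon-inducible cap that favours antigenic peptides. Psme1 read 10.55, 10.45 and 10.70 in wild type and 10.77, 10.82 and 10.68 in FRG1 muscle (0.19 ± 0.12; adjusted p = 0.353; 95% interval -0.08 to 0.46). Psme2 read 7.69, 7.91 and 7.85 against 7.92, 7.98 and 7.76 (0.07 ± 0.12; interval -0.21 to 0.34). Both had overlapping groups. Psme3, a nuclear activator, read 9.08, 8.82 and 9.08 in wild type and 9.08, 8.67 and 8.84 in FRG1 muscle (-0.13 ± 0.14; interval -0.45 to 0.19). Psme4, the activator PA200, read 10.18, 10.35 and 10.71 against 10.13, 10.57 and 10.47 (-0.03 ± 0.17; interval -0.41 to 0.35). Its 2 retained probes differed in sign, at -0.03 and 0.33, as did those of Psmb2 and Psmc5; in the other 10 of 13 members with several retained probes all probes had the same sign.

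Psmc3ip, which shares only the name, read 6.32, 6.16 and 6.17 in wild type and 6.80, 6.76 and 6.60 in FRG1 muscle, with no overlap (0.50 ± 0.12; limma adjusted p = 0.0222). The call was lost with any 1 FRG1 sample or wild type Sample872 left out. Without it and Psme3ip1 the counts were 3 higher and 1 lower of 37 genes, and the median stayed at 0.17.

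The promoters of the 4 proteasome genes that passed are shown because 3 of them rose and 1 fell, and they let the gene starts be set side by side. They come from RefSeq on build GRCm38.p6, run 5′ to 3′ on the gene's strand, and cover 250 bases before to 50 after the start. Capitals mark matches, on either strand, to 3 motifs: GGCGGG (the GC box bound by Sp1 family factors), CCAAT (the box bound by NF-Y) and TGACNNNGC (the core of the antioxidant response element, bound by Nfe2l1 and Nfe2l2). The Psma4 window is chr9:54950609-54950908, plus strand, that of Psmd8 chr7:29180624-29180923, minus strand, that of Psmd10 chrX:140956662-140956961, minus strand, and that of Psmd9 chr5:123227940-123228239, plus strand.
Psma4: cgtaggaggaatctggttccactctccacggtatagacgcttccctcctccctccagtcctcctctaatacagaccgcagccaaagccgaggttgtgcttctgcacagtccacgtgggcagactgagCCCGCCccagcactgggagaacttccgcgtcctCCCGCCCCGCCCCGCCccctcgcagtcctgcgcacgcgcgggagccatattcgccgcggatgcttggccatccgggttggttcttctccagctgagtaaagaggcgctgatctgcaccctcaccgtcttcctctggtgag
Psmd8: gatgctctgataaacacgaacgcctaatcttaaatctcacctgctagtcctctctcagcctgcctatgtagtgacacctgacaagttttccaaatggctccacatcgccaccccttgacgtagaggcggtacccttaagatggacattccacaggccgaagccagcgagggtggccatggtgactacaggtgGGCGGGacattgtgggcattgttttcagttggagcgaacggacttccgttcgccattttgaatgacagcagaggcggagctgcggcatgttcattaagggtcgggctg
Psmd10: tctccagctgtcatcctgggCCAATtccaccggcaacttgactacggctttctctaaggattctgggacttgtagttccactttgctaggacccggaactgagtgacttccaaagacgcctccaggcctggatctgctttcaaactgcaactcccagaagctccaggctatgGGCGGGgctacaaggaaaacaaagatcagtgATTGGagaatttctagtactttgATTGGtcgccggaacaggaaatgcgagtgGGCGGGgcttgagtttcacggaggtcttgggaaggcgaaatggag
Psmd9: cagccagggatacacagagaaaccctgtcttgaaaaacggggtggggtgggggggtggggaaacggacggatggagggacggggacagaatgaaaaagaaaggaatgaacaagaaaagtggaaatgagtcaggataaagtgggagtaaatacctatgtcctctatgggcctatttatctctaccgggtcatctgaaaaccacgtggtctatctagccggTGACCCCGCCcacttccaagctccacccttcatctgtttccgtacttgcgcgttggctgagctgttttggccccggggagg

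The Psma4 window held 4 GGCGGG matches, 3 of them overlapping from -90 to -75 relative to the start, and the Psmd8 window held 1. The Psmd10 window held 2 GGCGGG and 3 CCAAT matches. The Psmd9 window held 1 TGACNNNGC match from -31 to -23, which overlapped a GGCGGG match on the other strand. Of the member genes, 34 had promoters in the table, in 38 windows, and 6 did not. GGCGGG was in 26 member windows (68.4%), CCAAT in 14 (36.8%) and TGACNNNGC in 6 (15.8%). In all 32851 windows the shares were 35.3%, 37.4% and 12.4%. In the 10638 windows of the other genes with a retained probe they were 59.1%, 36.7% and 14.0%, so that the members' shares of CCAAT and TGACNNNGC were close to those of the other genes with a retained probe. The windows with TGACNNNGC belonged to Psmb5, Psmb6, Psmc6, Psmd12, Psme4 and Psmd9. The median GC content of member windows was 59.0%, and 60.3% in those of the other genes with a retained probe. A match describes the letters of these windows only. The members lay on 15 chromosomes, with 9 genes on chromosome 11.

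Genes that act with the proteasome were read from lists chosen for their function, beside 7.53% of all genes called higher and 7.23% lower. In the list of core assembly factors and the inhibitor Psmf1, 1 of 4 retained genes was higher and 0 lower, and all 4 were positive with a median of 0.26. Psmg1, a chaperone of the alpha ring, was the one that passed. It read 7.97, 7.95 and 7.99 in wild type Sample906, Sample872 and Sample923, and 8.72, 8.65 and 8.52 in FRG1 Sample873, Sample874 and Sample871. The groups were far apart beside their spread (0.66 ± 0.12; limma adjusted p = 0.00528). Pomp, the core maturation factor, was at 0.33 ± 0.12 (adjusted p = 0.111).

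Among proteins that bind the proteasome, 1 of 8 retained genes was higher and 0 lower, with a median of 0.06. Zfand5, a zinc finger protein known in mouse to stimulate the proteasome and to take part in muscle atrophy, read 6.19, 6.16 and 6.30 in wild type and 7.71, 7.39 and 7.74 in FRG1 muscle. It rose 2.64-fold with no overlap (1.40 ± 0.13; limma adjusted p = 0.000212), a larger value than that of any proteasome gene. Ecpas, an adaptor of the proteasome, was at -0.62 ± 0.18 on its brightest probe (adjusted p = 0.0512). Its 3 other retained probes disagreed, at -1.29 (adjusted p = 0.000342), 0.29 and 0.19. Txnl1, a thioredoxin-like protein of the regulatory particle, was at -0.34 ± 0.12.

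**Figure D4:**
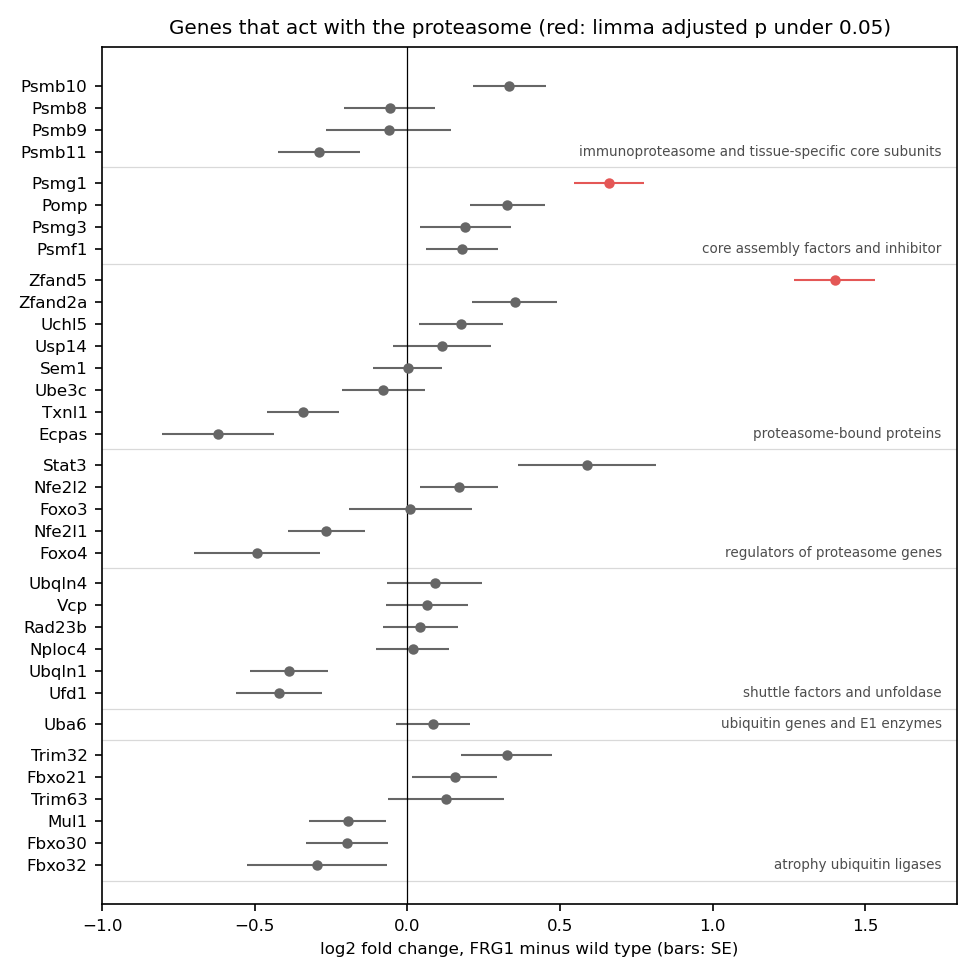
Each point is the log2 fold change (FRG1 minus wild type) of a gene that acts with the proteasome, with bars for the standard error, grouped by list; red marks an adjusted p under 0.05 in limma. Zfand5 at 1.40 and Psmg1 at 0.66 are the 2 red points, and the remaining genes lie between -0.62 and 0.59.

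The other lists had 0 genes called. Of the regulators of proteasome genes, Nfe2l1, which drives their transcription when proteasome activity is low, was at -0.27 ± 0.13 (adjusted p = 0.198), Stat3 at 0.59 ± 0.23 and Foxo4 at -0.49 ± 0.21. Of 6 shuttle and unfoldase genes 4 were positive, with Ubqln1 at -0.39 ± 0.13 on its brightest probe (its 3 other retained probes were positive) and Ufd1 at -0.42 ± 0.14. The 6 atrophy ubiquitin ligase genes ran from -0.30 to 0.32, with Trim32 at 0.32 ± 0.15, Mul1 at -0.20 ± 0.13, Fbxo32 (atrogin-1) at -0.30 ± 0.23 and Trim63 (MuRF1) at 0.13 ± 0.19. In the ubiquitin and E1 enzyme list only Uba6 was retained (0.08 ± 0.12). Of the immunoproteasome and tissue-specific core genes 4 were retained and 1 was positive: Psmb10 was at 0.33 ± 0.12 (adjusted p = 0.0975), Psmb8 at -0.06 ± 0.15, Psmb9 at -0.06 ± 0.21 and Psmb11, detected on 2 of 3 FRG1 arrays, at -0.29 ± 0.14.

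Markers of other cells were read beside the 7.53% of all genes called higher and the 7.23% called lower, and the lists differed. Of 12 macrophage markers 9 were retained, 7 were higher and 0 lower, with Lyz2 at 1.06 and Ctss at 1.03. Their summed level was 2363 to 2669 in wild type and 3882 to 4717 in FRG1 muscle, and Cd68, Csf1r and Cd163 had no retained probe. Of 8 endothelial markers, all retained, 0 were higher and 3 lower (summed level 4562 to 5401 in wild type and 3345 to 4234 in FRG1 muscle). Of 8 fibroblast markers 0 were higher and 1, Col1a1, lower (23585 to 28033 and 19688 to 24403), and 3 had a positive log2 fold change. Most of the fibroblast sum came from Col1a1 (-0.62 ± 0.18) and Dcn (0.03 ± 0.13). Of 6 lymphocyte markers 1, Cd79b, was retained. It was detected on 1 of 3 wild type and 3 of 3 FRG1 arrays, so it passed the filter through the FRG1 group. Its call as higher (24.1 to 31.2 in wild type and 36.6 to 68.0 in FRG1 muscle) is not read as a change in lymphocytes. The part of these cells in the proteasome values was not tested. Of 12 interferon response genes 7 were retained and 0 passed, with a median of -0.14 and summed levels of 3666 to 4357 in wild type and 4622 to 5556 in FRG1 muscle. Of the 7, 4 were negative, and most of the summed level came from 1 gene, B2m, at 11.70 ± 0.15 in wild type and 12.05 ± 0.14 in FRG1 muscle (log2, mean ± SD, n = 3; limma adjusted p = 0.110).

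The calls of single member genes depended on settings. Psmd9 passed in 13 of 15 alternatives, Psmc3ip in 11, Psmd8 and Psmd10 in 9 each and Psma4 in 8, and none of the 5 changed sign. Over these alternatives the limma adjusted p-values were 0.00498 to 0.102 for Psmd9, 0.0108 to 0.101 for Psmc3ip, 0.0124 to 0.0842 for Psmd8, 0.00926 to 0.109 for Psmd10 and 0.00992 to 0.135 for Psma4. Of the genes without a call, 7 changed sign in at least 1 alternative (Psma1, Psma5, Psmb7, Psmc3, Psmc5, Psmc6 and Psme4). Of the genes that did not pass, Psmb4 passed in 7 alternatives, Psmd5 in 4 and Psma7 in 1. Under median scaling the median of all genes was 0.10 in place of -0.03, that of the members 0.25, and 37 of 39 members were positive. The members' median lay above that of all genes by 0.16 under that scaling and by 0.20 in the values reported above. The number of members higher was 0 with FRG1 Sample873, Sample874 or Sample871 left out. The share of all genes higher also fell, from 7.53% to 3.54%, 5.22% and 3.66% in these fits. The members higher numbered 1 when wild type Sample906 was left out, 1 when Sample872 was, and 4 when Sample923 was. Of all genes, 5.49%, 6.31% and 8.05% were higher there. Psmd9 remained lower in each of these fits except that without FRG1 Sample871. In these 6 fits between 32 and 34 of 39 members were positive and the members' median was 0.16 to 0.19.

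**Figure D5:**
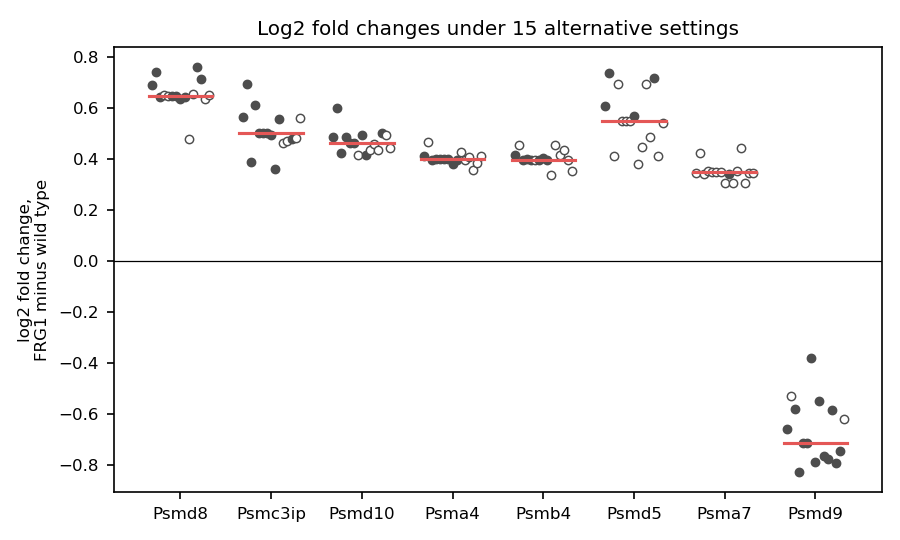
For each of 8 genes the red line is the reported log2 fold change (FRG1 minus wild type) and each circle its value under 1 of 15 alternative settings, filled where the adjusted p was under 0.05 in limma. No circle crosses 0, and filled and open circles are mixed for all 8 genes.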

How the data were processed

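Both tables used were deposited by the authors. Per the file headers, one lists 46632 probes with non-normalized signal intensity and detection p-value in 6 Illumina arrays, and the other the authors' processed intensity. Per the submitters' processing notes lumi was used; its version is not given in the sources used here. Between 33.7% and 33.9% of each processed column lay below 0, the column medians were 5.07 to 5.15, and each kept the rank order of its array. The labels do not state the scale or any subtraction, and a kept rank order cannot tell a linear scale from another. The processed table was an alternative only. Per the labels' protocols, RNA was treated with DNase I and labelled as biotinylated cRNA.

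Intensities were corrected with the detection p-values (normexp, offset 16), quantile normalized and taken to log2 with limma 3.58.1 in R 4.3.3. The 19563 retained probes were fitted with lmFit and eBayes, group as the only term, with two-sided p-values adjusted by Benjamini-Hochberg over all of them. Over all retained probes 1389 were higher (7.1%) and 1313 lower (6.71%). The offset understates fold changes of dim probes, and the number of arrays limits the precision. Members were taken by the platform's symbols; symbols of other genes were updated by Entrez ID from RefSeq of GRCm38.p6 (29976 probes had 1 symbol, 10 several and 16646 none). Levels of different probes were used to pick the brightest probe of a gene and were summed within marker lists, where bright probes weigh most. Between genes they were not otherwise compared.

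The members and lists were chosen with earlier results of these data known. All members may be named; values in every sample were given for those past the threshold, the 2 largest in each direction, the catalytic subunits and the activators, and of the other lists genes past the threshold and up to 2 more. Psmb4 in every sample, Nfe2l1, Psmb8, Psmb9, Fbxo32, Trim63, Lyz2 and Ctss were added after their values were seen, and Psme3ip1 was placed with the genes that match by name. The fit was also run on simulated data with added effects larger than the members' median, which says nothing of shifts as small as that median. Alternatives were other normalizations, background corrections, filters and offsets, array weights, averaged probes and leaving out each sample.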

Additional observations from a re-analysis of the deposited data

How the results depend on the processing

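Of the values for single genes under 15 alternatives each, 548 stayed on their side of the threshold, 25 calls were lost and 12 were gained, and no called gene changed sign. The number of probes past the threshold, 2702, was 2090 to 3323 in fits of all samples and 1161 to 2660 with 1 sample left out. Members higher numbered 4 to 6 in fits of all samples and 0 to 4 with 1 sample left out. Members lower numbered 0 to 1, with 0 under median scaling and without FRG1 Sample871. Across all genes, 3.34% to 10.2% were higher in fits of all samples and 3.54% to 8.05% with 1 sample left out. The shares lower were 2.73% to 8.97% and 2.96% to 6.22%. With median scaling the medians were 0.25 for all members, 0.25 for the beta ring, 0.38 for the lid and 0.13 for the activators, on a shift of the median of all genes from -0.03 to 0.10. The base median was 0.056 to 0.16 with 1 sample left out. Median scaling also changed the split of calls, to 79.1% higher from 51.4%. It ended the calls of Psma4 and Psmd9; averaging probes ended that of Psmd10; the authors' table and no detection filter ended that of Psmd8. The causes were not tested. No paired analysis was possible because the groups share no sample numbers. The headers name no slide, so no slide block was fitted. The set without the 2 name matches was chosen after seeing the data.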
